A study of Rattus norvegicus with 30 samples.

Results

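The sham-operated rats on the excess vitamin A diet were compared with the sham-operated rats on the deficient diet, the widest span of dietary vitamin A in the study without the operation. The members were the 5 libraries whose treatment label names sham surgery with excess vitamin A and the 5 whose label names sham surgery with a deficient diet, 10 of 30 libraries in all. Each library held RNA of rat lung cells that magnetic microbeads had selected for CD31, a surface protein of endothelial cells, 3 weeks after surgery. All rats were labelled wild-type, and strain, age and sex are not given in the labels used here. Beside these 2 groups, values are given for 5 sham libraries on the control diet and for 5 deficient and 5 excess libraries after the Glenn operation, a shunt that carries caval blood straight into a pulmonary artery. The 5 Glenn libraries on the control diet enter the fit and the plot by group. Libraries were made with SMART-Seq Ultra Low v4, a low-input kit. The labels do not say that replicates are separate animals, so p-values measure only the spread between these samples.

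Vitamin A reaches tissues as retinol. Cells oxidise it by way of retinaldehyde to retinoic acid, which binds the nuclear receptors RAR and RXR on DNA. Cytochrome P450 enzymes of the CYP26 family break retinoic acid down, and retinoic acid itself induces their genes, so their transcripts are widely used as a readout of retinoid supply. In the lung, retinoic acid acts on alveolar formation and on vessels. Interferons raise a large group of antiviral and immune genes in most cell types, endothelial cells included.

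The libraries held 32.1 to 49.4 M counts (M, 1e6 counts). Endothelial transcripts were abundant in both groups: Cdh5, an endothelial junction cadherin, lay between 2244 and 2512 CPM on the deficient diet and between 2135 and 2668 CPM on the excess diet. CPM stands for counts scaled between libraries to a library total of 1 M. Pecam1, which codes for CD31, lay between 971 and 1731 CPM on the deficient diet and between 1006 and 1201 CPM on the excess diet. Sftpc, a surfactant protein of type 2 alveolar cells, was also high, at 20544 to 31968 CPM and 21821 to 31040 CPM, so the preparations held transcripts of alveolar epithelium as well. Ptprc, the pan-leukocyte marker CD45, was at most 5.60 CPM in these libraries.

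The libraries came in 2 number ranges, called series A and series B here. All 5 excess libraries, and deficient replicates 1 and 2, belong to series A, while deficient replicates 3, 4 and 5 belong to series B. Within these 2 groups the transplantation antigen gene RT1-CE16 followed the same line. It was at 25.7 to 44.4 CPM in the excess libraries and at 40.7 and 32.9 CPM in deficient replicates 1 and 2. In deficient replicates 3, 4 and 5 it was at 452, 643 and 574 CPM. The control sham libraries are all of series A, yet 3 of the 5 held over 100 CPM of RT1-CE16. The control values given below thus mix both RT1-CE16 levels. By the Y-linked gene Ddx3y each of the 2 groups compared held 2 male and 3 female libraries. The fit carries the series as a term estimated from the Glenn libraries as well. Within series A the comparison rests on 5 against 2 libraries, and diet and series cannot be fully told apart.

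The promoter sequences of 6 retinoid and interferon genes are printed here, of which only Gbp6 is called changed in the main edgeR fit below. They show which of these genes carry the known DNA elements for retinoic acid or interferon near the gene start. They are RefSeq sequences of the rat assembly GRCr8, which is not the build of the count table, and run 5′ to 3′ in the direction of the gene from 250 bases before to 50 bases after the start. Capitals mark a match to a retinoic acid element in the retinoid genes and to the core of the interferon element in the interferon genes, on either strand. The retinoic acid element is a direct repeat of a half-site with 5 bases of any kind between the copies. It was searched in 3 spellings: the repeat of AGTTCA, the same repeat with G as its first base, and the repeat of AGGTCA. The interferon core was the repeat of GAAA with 2 bases of any kind between the copies.
Cyp26b1 (chr4:118616127-118616426, minus strand): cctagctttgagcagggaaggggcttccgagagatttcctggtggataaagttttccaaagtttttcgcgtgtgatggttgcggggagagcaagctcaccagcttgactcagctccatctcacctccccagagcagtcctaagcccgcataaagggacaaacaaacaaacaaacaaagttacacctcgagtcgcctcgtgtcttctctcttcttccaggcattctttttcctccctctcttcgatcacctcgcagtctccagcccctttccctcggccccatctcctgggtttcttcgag
Cyp26a1 (chr1:244883572-244883871, plus strand): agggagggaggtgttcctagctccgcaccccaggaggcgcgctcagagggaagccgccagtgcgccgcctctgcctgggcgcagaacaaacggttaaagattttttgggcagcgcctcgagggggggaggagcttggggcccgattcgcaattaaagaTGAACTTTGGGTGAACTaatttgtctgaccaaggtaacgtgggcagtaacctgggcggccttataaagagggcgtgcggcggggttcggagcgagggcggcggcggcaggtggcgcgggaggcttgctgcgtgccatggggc
Rarb (chr15:11336142-11336441, plus strand): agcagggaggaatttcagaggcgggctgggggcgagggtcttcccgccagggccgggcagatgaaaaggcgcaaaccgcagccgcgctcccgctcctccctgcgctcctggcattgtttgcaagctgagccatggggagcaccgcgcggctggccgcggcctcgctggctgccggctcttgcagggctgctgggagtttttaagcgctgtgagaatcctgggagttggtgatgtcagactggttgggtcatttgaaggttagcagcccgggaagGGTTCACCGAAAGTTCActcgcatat
Gbp6 (chr14:5034749-5035048, plus strand): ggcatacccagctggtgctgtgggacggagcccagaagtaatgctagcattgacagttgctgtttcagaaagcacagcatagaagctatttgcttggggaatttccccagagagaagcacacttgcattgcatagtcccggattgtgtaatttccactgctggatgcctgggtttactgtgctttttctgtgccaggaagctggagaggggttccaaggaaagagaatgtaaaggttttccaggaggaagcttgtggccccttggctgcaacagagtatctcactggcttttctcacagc
Gbp1 (chr2:234072187-234072486, plus strand): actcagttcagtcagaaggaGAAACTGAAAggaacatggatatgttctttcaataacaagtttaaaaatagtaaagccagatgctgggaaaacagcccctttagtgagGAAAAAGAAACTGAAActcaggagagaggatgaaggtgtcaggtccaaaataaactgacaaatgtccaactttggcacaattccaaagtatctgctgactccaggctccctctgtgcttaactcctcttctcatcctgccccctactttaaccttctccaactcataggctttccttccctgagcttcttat
Igtp (chr10:42874797-42875096, plus strand): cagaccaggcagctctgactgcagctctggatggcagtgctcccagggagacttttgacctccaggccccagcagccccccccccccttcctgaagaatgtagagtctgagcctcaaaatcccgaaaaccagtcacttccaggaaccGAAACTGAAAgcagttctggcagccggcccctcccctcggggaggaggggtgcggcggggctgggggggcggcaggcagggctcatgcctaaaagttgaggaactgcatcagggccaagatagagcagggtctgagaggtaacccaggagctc

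Rarb and Cyp26a1 each held 1 retinoic acid element. In Cyp26a1 it lay 92 bases before the start on the opposite strand, and in Rarb 24 bases after the start on the same strand. Each of the 3 spellings occurred in 3 of 33469 rat promoters of this length (0.00896%). The Cyp26b1 window held none of them. The interferon core occurred in 3.92% of the 33469 promoters, in 16 of the 21 promoters found for the interferon-stimulated list (76.2%), and in 7 of 11 promoters of interferon-inducible GTPase genes (63.6%). The Gbp1 window printed above held 3 matches, of which 2 overlap, and a second RefSeq entry for Gbp1 held 0. Igtp held 1 match to the interferon core, 103 bases before its start, and the Gbp6 window held none. A match is a description of the letters and not a binding site, and a window without one says nothing about the factor.

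Across 16171 genes tested by edgeR's quasi-likelihood test with Benjamini-Hochberg adjustment, 2 genes passed an adjusted p of 0.05 (0.0124%), and both were lower on the excess diet. These were Gbp6, an interferon-inducible GTPase, and C4b, a complement component, so 0.0124% of genes were called lower and 0% higher. At an unadjusted p under 0.05 there were 854 genes (5.28%), of which 340 were higher (2.1%) and 514 lower (3.18%). The median log2 difference over all genes tested was 0.0009, with 50.2% of genes above 0 and 49.8% below. With DESeq2 12 genes passed, 2 higher and 10 lower. With limma voom, run with a quality weight for each library, 3 passed, 1 higher and 2 lower. The gene with the smallest p among those higher was Cyp26b1, which breaks down retinoic acid.

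Cyp26b1 (ENSRNOG00000015076) stood at 29.8, 82.7, 42.1, 43.3 and 33.7 CPM in the 5 deficient libraries. On the excess diet it stood at 144, 175, 118, 129.6 and 256 CPM. The lowest excess library was above the highest deficient one, so the groups did not overlap, although deficient replicate 2 stood well above the other 4. The means were 46.3 ± 21.1 CPM (SD, n = 5) and 165 ± 55.7 CPM (SD, n = 5), a log2 difference of 1.79 ± 0.39 (SE) that did not pass the threshold in edgeR (adjusted p = 0.294, unadjusted p = 0.000101). DESeq2 gave 1.78 (adjusted p = 0.0230) and limma voom with quality weights 1.96 (adjusted p = 0.000613), both past it. Leaving out 1 library at a time gave 1.57 to 2.31.

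The control-diet sham libraries lay between the 2 groups, at 83.3, 78.2, 103, 67.2 and 86.3 CPM of Cyp26b1. Against them the excess group differed by a log2 of 0.98 ± 0.34 and the deficient group by -0.81 ± 0.38, and these 2 differences share the control libraries. In the Glenn libraries, none of which enters the sham groups, Cyp26b1 was at 16.2, 9.50, 21.8, 13.0 and 18.5 CPM on the deficient diet and at 37.2, 36.0, 46.7, 43.4 and 45.4 CPM on the excess diet. All 5 Glenn excess libraries were above all 5 Glenn deficient ones. The Glenn log2 difference was 1.43 ± 0.36 (edgeR adjusted p = 0.406, unadjusted p = 0.000581), and the diet difference after Glenn minus that after sham was -0.36 ± 0.54 (unadjusted p = 0.510).

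Cyp26a1, the other retinoic acid hydroxylase tested, was low in every sham library. It was at 3.93, 3.18, 3.08, 1.03 and 2.86 CPM on the deficient diet and at 4.56, 7.39, 3.02, 5.57 and 6.55 CPM on the excess diet. Excess replicate 3 fell among the deficient libraries. The log2 difference was 0.72 ± 0.37 (edgeR unadjusted p = 0.0636, adjusted p = 0.983), and the control group, at 5.45 ± 0.944 CPM (SD, n = 5), was level with the excess group at 5.42 ± 1.71 CPM (SD, n = 5). Cyp2s1, a further cytochrome P450 that can act on retinoic acid, had a log2 difference of -0.68 ± 0.28 (edgeR unadjusted p = 0.0226), -0.36 without deficient replicate 2 and 0.22 without replicates 1 and 2. The 3 tested genes of the breakdown list thus lay on both sides of 0, with a median of 0.72.

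In the retinoic acid synthesis list, which also holds Dhrs3, an enzyme of the reverse step, 12 of 14 listed genes were tested. Of the tested genes 0 passed the adjusted threshold, and 2 had an unadjusted p under 0.05, both lower. Of all genes, 3.18% were lower at that p. Rdh12, a retinol dehydrogenase, was at 0.698, 1.02, 1.29, 0.770 and 0.645 CPM on the deficient diet and at 0.165, 0.559, 0.463, 0.490 and 0.468 CPM on the excess diet. All 5 excess values were below all 5 deficient ones. Its log2 difference was -0.89 ± 0.35 (edgeR unadjusted p = 0.0164, adjusted p = 0.789). Rdh12 was also lower on the excess diet after Glenn, with a log2 difference of -0.75 (unadjusted p = 0.00822), where its level was 12.3 ± 4.28 CPM (SD, n = 5) on the deficient diet.

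Aldh1a1, a retinaldehyde dehydrogenase, stood at 41.1, 42.8, 15.4, 22.6 and 24.8 CPM on the deficient diet and at 17.8, 28.3, 20.7, 23.2 and 14.1 CPM on the excess diet. The 2 highest deficient values are replicates 1 and 2, and the other 3 overlap the excess libraries. The log2 difference of Aldh1a1 was -0.69 ± 0.31 (edgeR unadjusted p = 0.0342, adjusted p = 0.905), and -0.08 without deficient replicates 1 and 2. Aldh1a2, the main embryonic enzyme of the family, had a log2 difference of -0.21 ± 0.27 (unadjusted p = 0.441; 0.05 without deficient replicate 2) and followed the series, with series B above series A by a log2 of 0.97 (edgeR adjusted p = 0.0152). Dhrs3, which turns retinaldehyde back to retinol and is induced by retinoic acid, differed by 0.09 ± 0.09 (unadjusted p = 0.305).

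Retinol entry and storage showed no member at an unadjusted p under 0.05 among 13 of 16 listed genes tested, with a median log2 difference of -0.05. Lrat, which esterifies retinol for storage, differed by 0.43 ± 0.36. Stra6, the membrane receptor for retinol-binding protein, was near the detection limit and differed by -0.08.

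The receptors and binding proteins of retinoic acid, 17 of 17 tested, had a median of 0.09 with 12 above 0 and 5 below, and 0 had an unadjusted p under 0.05. Rxrb, an RXR subunit, was at 78.1, 71.5, 69.5, 77.7 and 67.9 CPM on the deficient diet and at 87.4, 80.0, 81.4, 86.5 and 79.2 CPM on the excess diet, with no overlap. Genes whose groups did not overlap with excess higher made up 0.816% of all genes tested, and those with excess lower 0.903%. The fitted log2 difference of Rxrb was 0.09 ± 0.07 (edgeR unadjusted p = 0.223). Rarb, a receptor gene that retinoic acid induces, was at 49.2 ± 4.64 CPM (SD, n = 5) on the deficient diet and 58.5 ± 9.09 CPM (SD, n = 5) on the excess diet, and its groups overlapped. Its log2 difference was 0.14 ± 0.14 (edgeR unadjusted p = 0.320).

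Of the 26 genes listed as induced by retinoic acid, 21 were tested, 0 passed the adjusted threshold, 10 lay above 0 and 11 below, and the median was -0.01. Cyp26b1 was the 1 member with an unadjusted p under 0.05. Tgm2, a transglutaminase, stood at 982 ± 95.7 CPM (SD, n = 5) and 1061 ± 79.9 CPM (SD, n = 5), with a fitted log2 difference of -0.12 ± 0.13. The fitted value carries the series term and is opposite in sign to the difference of the raw means. The list's median was -0.01 for excess against control and -0.01 for deficient against control, which share the control libraries, and 0.13 in the Glenn libraries.

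**Figure D1:**
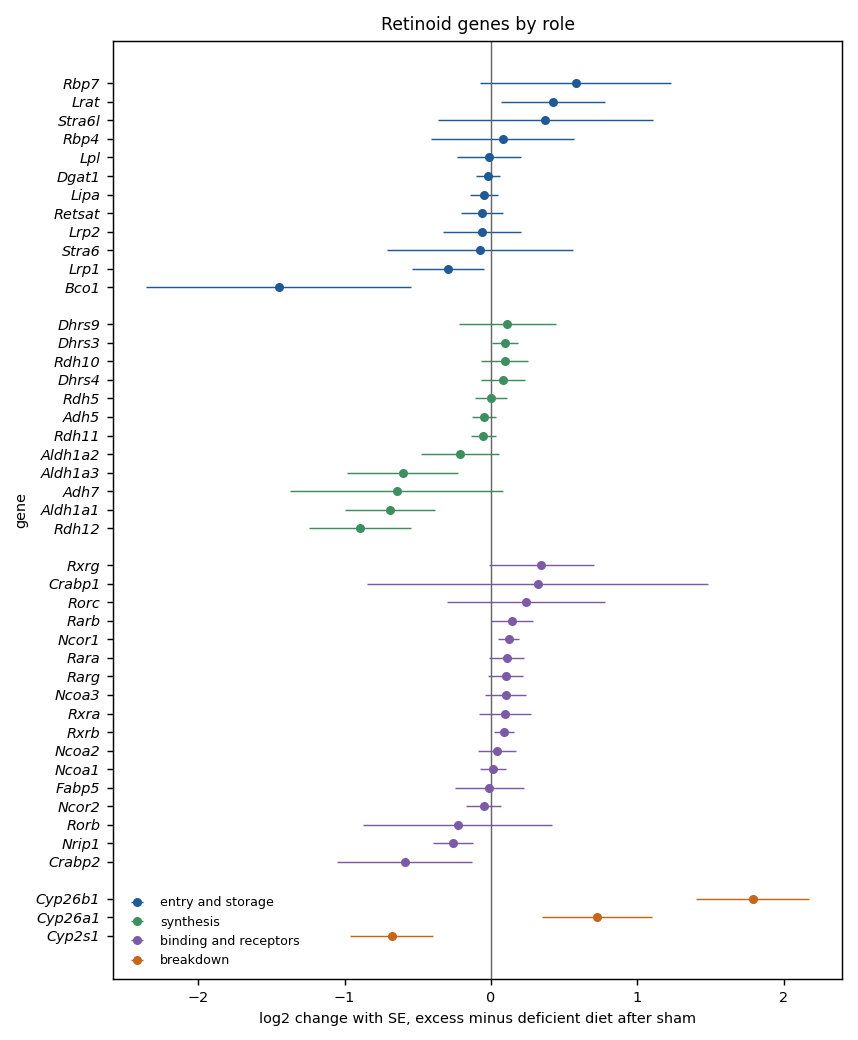
Log2 difference of excess minus deficient diet after sham for the tested genes of the retinoid lists that are shown, ordered by role, with bars for the standard error of the edgeR fit. Cyp26b1, at 1.79, stands above the other genes, and Bco1, a carotenoid-cleaving enzyme at -1.45 with a wide error, stands lowest.

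Vegfa, the main growth factor of endothelial cells, was among the 8 genes named in the higher direction. Vegfa stood at 1223, 1139, 1103, 1377 and 1096 CPM on the deficient diet and at 1655, 1501, 1587, 1540.4 and 1463 CPM on the excess diet. No excess library overlapped a deficient one, nor the control libraries, at 1113, 1406, 1215, 1179 and 1142 CPM. The log2 difference of Vegfa (ENSRNOG00000019598) was 0.46 ± 0.12 (edgeR adjusted p = 0.353, unadjusted p = 0.000511). After Glenn surgery its level was 405 ± 40.9 CPM (SD, n = 5) on the deficient and 361 ± 57.2 CPM (SD, n = 5) on the excess diet, a log2 difference of -0.19 ± 0.11. The difference of the diet effect between the surgeries was -0.66 ± 0.17 (edgeR adjusted p = 0.523, unadjusted p = 0.000453).

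Over the VEGF and tip cell list, 24 of 24 genes were tested and 0 passed the adjusted threshold. The median was -0.04, with 11 above 0, 13 below, 3 higher and 1 lower at an unadjusted p under 0.05. Of all genes, 2.1% were higher and 3.18% lower at that p. Vegfb, a second ligand of the family, differed by 0.46 ± 0.16 (edgeR unadjusted p = 0.00696), and Flt4, the receptor of the lymphatic ligands, by -0.30 (unadjusted p = 0.0441). The receptor gene Kdr differed by -0.04 and the tip cell ligand gene Dll4 by 0.06.

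Among the other 6 genes named in the higher direction, Nr4a2, an immediate early nuclear receptor, was at 24.4, 23.6, 23.7, 24.4 and 33.3 CPM on the deficient diet and at 32.9, 34.6, 29.8, 32.6 and 43.6 CPM on the excess diet. One deficient library, replicate 5, reached the excess range. Its log2 difference was 0.53 ± 0.13 (edgeR adjusted p = 0.349, unadjusted p = 0.000404). Qrich1, a transcriptional regulator of the unfolded protein response, was at 28.6, 26.3, 27.7, 27.96 and 31.4 CPM on the deficient diet and at 34.9, 32.9, 31.8, 37.7 and 32.1 CPM on the excess diet, with no overlap. Its log2 difference was 0.30 ± 0.08 (edgeR adjusted p = 0.349).

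Tubb2a, a beta tubulin, differed by 0.37 ± 0.09 with means of 128 and 162 CPM, and Slc5a3, a myo-inositol transporter, by 0.86 ± 0.22 with means of 5.16 and 7.45 CPM. Crem, a cAMP-responsive transcription factor, differed by 0.51 ± 0.14 and Bbc3, a pro-apoptotic BCL2 family gene, by 0.57 ± 0.15. In the 2 groups alone with no series term Slc5a3 differed by 0.52. The groups overlapped for Tubb2a, Slc5a3, Crem and Bbc3. Without deficient replicates 1 and 2 their log2 differences were 0.26, 1.16, 0.25 and 0.31 in that order. The edgeR adjusted p of these 4 lay between 0.351 and 0.384, so none of the 8 genes named in this direction passed the threshold. After Glenn surgery Tubb2a differed by -0.09 and Nr4a2 by -0.12.

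**Figure D2:**
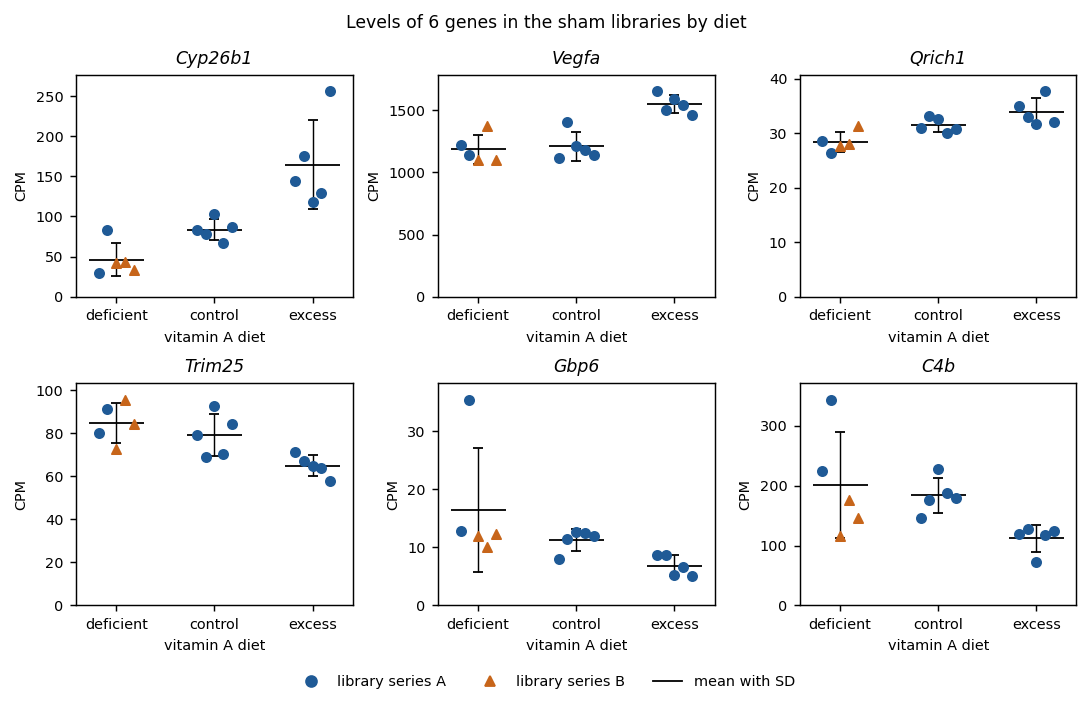
CPM of Cyp26b1, Vegfa, Qrich1, Trim25, Gbp6 and C4b in the 15 sham libraries, by diet, with circles for series A, triangles for series B and a bar for the mean with SD. Cyp26b1 and Vegfa are higher in all 5 excess libraries than in all 5 deficient ones, and for Gbp6 deficient replicate 2 stands apart at 35.5 CPM.

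Gbp6 (ENSRNOG00000068418), a guanylate-binding protein that interferon induces, fell on the excess diet relative to the deficient diet. It stood at 12.8, 35.5, 12.0, 10.01 and 12.2 CPM on the deficient diet and at 8.74, 8.65, 5.20, 6.58 and 5.002 CPM on the excess diet. Every excess value was below every deficient value, and deficient replicate 2 stood far above the other 4. The log2 difference was -1.55 ± 0.25 (edgeR adjusted p = 0.0247, unadjusted p = 1.53e-06). Without deficient replicate 2 it was -0.996 and the call was lost (adjusted p = 0.552). It was also lost without excess replicate 3, 4 or 5 (adjusted p = 0.135, 0.116 and 0.0832), with no series term (-1.27, adjusted p = 0.336), and with RT1-CE16 level as the covariate instead (-1.38, adjusted p = 0.445). Within series A it was -1.83 (adjusted p = 0.0371).

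The control libraries held 7.998, 11.4, 12.8, 12.5 and 11.9 CPM of Gbp6, level with 4 of the 5 deficient libraries. Excess minus control was -0.73 and deficient minus control 0.82, and these 2 share the control libraries. The control libraries are all of series A, so the deficient minus control value carries the series term. After Glenn surgery the groups stood at 10.2 ± 3.19 CPM (SD, n = 5) and 7.38 ± 0.826 CPM (SD, n = 5), a log2 difference of -0.32 ± 0.24 (edgeR unadjusted p = 0.197). Guanylate-binding protein genes have similar copies, so the split of reads among them is uncertain.

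C4b (ENSRNOG00000070397), a complement component of the classical and lectin pathways, also fell. It stood at 224, 343, 116, 175 and 146 CPM on the deficient diet and at 119, 127, 72.0, 117 and 125 CPM on the excess diet. The groups overlap, since deficient replicate 3 lies below 4 of the excess libraries. The log2 difference was -1.13 ± 0.20 (edgeR adjusted p = 0.0375, unadjusted p = 4.63e-06). Of the 10 fits that left out 1 library, the call held in the 1 without deficient replicate 3, and the values ran from -1.20 to -0.88. Without deficient replicate 2 the adjusted p was 0.552. The C4b call was also lost with no series term and with RT1-CE16 level as the covariate instead, settings in which edgeR called no gene. Series B lay below series A by a log2 of 0.59 for C4b (adjusted p = 0.0377), and without deficient replicates 1 and 2 the diet difference was -0.78 (adjusted p = 0.735).

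C4b has a near-identical neighbour copy, C4a, and the sharing of reads between the 2 is uncertain. C4a stood at 2083, 3246, 3462, 4301 and 2974 CPM on the deficient diet and at 1505, 2230.3, 1775, 2022 and 2014 CPM on the excess diet, with a log2 difference of -0.41 ± 0.21 (edgeR unadjusted p = 0.0539), and -0.23 without deficient replicate 2. The C4b level after Glenn was 315 ± 49.6 CPM (SD, n = 5) on the deficient and 292 ± 63.8 CPM (SD, n = 5) on the excess diet, a log2 difference of -0.02. The difference of the diet effect between the surgeries was 1.12 ± 0.28 (edgeR adjusted p = 0.500, unadjusted p = 0.000395). In a complement list chosen after the values were seen, 11 of 15 tested genes lay below 0, with a median of -0.26 (-0.16 without deficient replicate 2).

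The other genes named in the lower direction did not pass the threshold, each at an edgeR adjusted p of 0.294. Gbp1, another guanylate-binding protein gene, was at 11.8, 20.8, 2.54, 4.21 and 3.05 CPM on the deficient diet and at 6.88, 3.18, 0.954, 4.62 and 2.31 CPM on the excess diet, a log2 difference of -1.74 ± 0.39, and -0.92 without deficient replicates 1 and 2. Trim25, a ubiquitin ligase of the antiviral RNA-sensing pathway, was at 80.0, 91.4, 72.6, 95.5 and 84.4 CPM on the deficient diet and at 71.2, 67.3, 64.7, 63.7 and 57.9 CPM on the excess diet. Unlike those of Gbp1, its groups did not overlap, and its log2 difference of -0.44 ± 0.10 was -0.50 without deficient replicates 1 and 2. Samd9l, an interferon-induced gene, differed by -0.65 ± 0.15, and by -0.41 without deficient replicate 2 and -0.29 without replicates 1 and 2. Xdh, xanthine dehydrogenase, differed by -0.60 ± 0.14, and Tmem132c, a membrane protein gene, by -0.67 ± 0.16.

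Of the 31 interferon-stimulated genes listed, 28 were tested and all 28 lay below 0, from -1.51 to -0.15, with a median of -0.60. By the adjusted test 0 of the 28 passed, while 20 had an unadjusted p under 0.05 (71.4%), against 3.18% of all genes. Mx1, an antiviral GTPase, was at 134, 327, 92.3, 48.6 and 67.9 CPM on the deficient diet and at 88.7, 65.2, 39.6, 52.4 and 59.8 CPM on the excess diet (-1.51 ± 0.35, edgeR adjusted p = 0.294, and -0.93 without deficient replicate 2). Mx2, its close relative, differed by -0.93 ± 0.23.

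As the mean log2(CPM + 1) over the 28 genes, the deficient libraries stood at 6.99, 7.63, 6.23, 6.06 and 6.14 and the excess libraries at 6.86, 6.47, 5.86, 6.42 and 6.38. Deficient replicates 1 and 2 were the highest of the 10, and the other 3 deficient libraries lay inside the excess range. The list's median log2 difference was -0.32 without deficient replicate 2, with 3 genes at an unadjusted p under 0.05, and -0.11 without replicates 1 and 2, with 1. It was -0.88 within series A, -0.33 with no series term and -0.50 with RT1-CE16 level as the covariate instead. Series B lay below series A for all 28 genes, with 15 lower by adjusted p, against 0.934% of all genes. Deficient replicates 1 and 2 are the only series A libraries of their group, so they enter this series estimate too. The series difference is therefore not separate from these 2 libraries.

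The control sham libraries stood at 6.38, 6.43, 6.50, 6.07 and 6.07 on the same interferon scale. On that scale the mean was 6.29 in the control and 6.61 in the deficient libraries. The fitted median log2 difference was 0.73 for deficient minus control and 0.12 for excess minus control, which share the control libraries. The control libraries are all of series A, so the deficient minus control value carries the series term. In the Glenn libraries the median was -0.04, with 21 genes below 0 and 0 at an unadjusted p under 0.05 in either direction, where all genes gave 50.1% below 0, 2.67% higher and 2.5% lower. The test of the difference between surgeries gave an adjusted call for 0% of all genes and an unadjusted p under 0.05 for 4.24%, and for 8 of the 28 interferon genes. The Glenn diet contrast itself called 0% of genes at the adjusted threshold by edgeR, with 837 genes at an unadjusted p under 0.05.

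**Figure D3:**
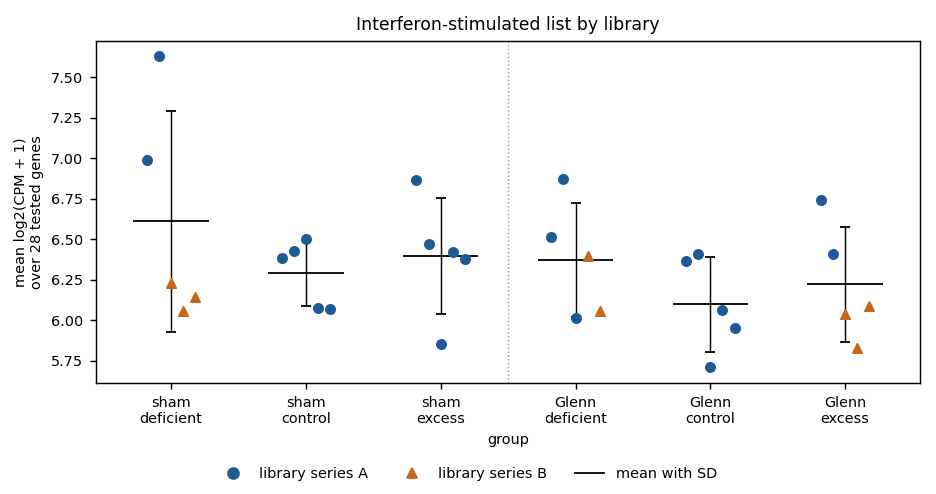
Mean log2(CPM + 1) over the 28 tested interferon-stimulated genes in each of the 30 libraries, by group, with circles for series A and triangles for series B. The sham deficient libraries replicates 1 and 2, at 6.99 and 7.63, are the highest of the 10 sham deficient and excess libraries.

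Lists chosen after the values were seen split the interferon pathway by role. No interferon ligand gene had a count in the 10 libraries: of 7 in the table, among them Ifnb1 and Ifng, all were at 0, which allows up to 0.0607 to 0.0935 CPM by a limit of 3 counts. The 5 tested receptor genes had a median of 0.02, with Ifnar1 at -0.06 and Ifngr1 at 0.04. The 9 signal transducers had a median of -0.16, with 3 lower at an unadjusted p under 0.05, against 3.18% of all genes. The 6 feedback inhibitors had a median of -0.28 (-0.13 without deficient replicate 2), with 3 lower at that p. The 10 interferon-inducible GTPases had the lowest median of these lists, -0.91, all 10 with an unadjusted p under 0.05, against 3.18% of all genes, and Gbp6 called. Without deficient replicate 2 their median was -0.52, 5 had an unadjusted p under 0.05 and 0 were called by edgeR, and without replicates 1 and 2 it was -0.30. Igtp, of the same family, was at 344, 579, 152, 143 and 159.8 CPM on the deficient diet and at 228, 196, 118, 171 and 156 CPM on the excess diet (-1.003 ± 0.24, and -0.597 without deficient replicate 2).

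Antigen presentation genes, which interferon also raises, had a median of -0.20 over 24 of 32 tested, with 18 below 0. At an unadjusted p under 0.05, 4 were lower (16.7%), against 3.18% of all genes. Tap1, a peptide transporter, differed by -0.73 (edgeR unadjusted p = 0.00119) and Nlrc5, a regulator of class I genes, by -1.02 (unadjusted p = 0.00140). Without excess replicate 3 the list's median was -0.09, and with no series term -0.02. Without deficient replicate 2 Nlrc5 differed by -0.63. By adjusted p, 11 of the 24 genes were lower in series B, against 0.934% of all genes, and 2 were higher, RT1 genes among both. Deficient replicates 1 and 2 enter this series estimate as well.

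**Figure D4:**
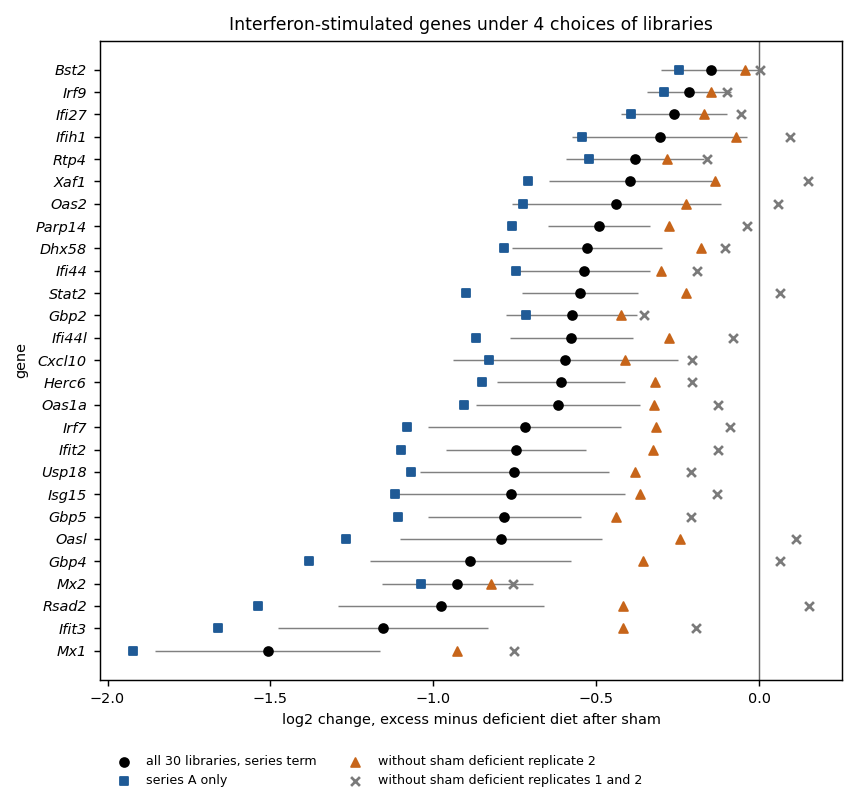
Log2 difference of excess minus deficient diet for the interferon-stimulated genes shown, under 4 choices of libraries. The median over all 28 tested genes is -0.60 with all 30 libraries, -0.88 within series A and -0.11 without deficient replicates 1 and 2.

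Airway cell markers also set deficient replicates 1 and 2 apart. Airway markers, as a summed level, ran from 2298 to 4142 CPM on the deficient diet and from 1957 to 3032 CPM on the excess diet. Scgb1a1, the club cell secretoglobin, was at 3593, 3777, 2045, 1865 and 2002 CPM on the deficient diet and 1529, 2623, 2483, 2259 and 1717 CPM on the excess diet. Deficient replicates 1 and 2 were again the highest. The airway list's median log2 difference was -1.01, -0.13 without deficient replicate 1 and 0.09 without replicates 1 and 2. Foxj1, which drives motile cilia, was at 3.75, 4.93, 0.659, 3.10 and 2.38 CPM on the deficient diet and at 0.805, 1.88, 1.39, 1.24 and 0.936 CPM on the excess diet (-1.30 ± 0.39, edgeR unadjusted p = 0.00233). Leukocyte markers as mean log2(CPM + 1) were lowest in deficient replicates 1 and 2, at 3.24 and 3.58, against 3.71 to 4.16 in the other deficient libraries. The excess libraries ran from 3.67 to 3.93 and the control sham libraries from 3.41 to 4.87. Replicate 2 thus lay inside the control range and close to the excess range. The part of these cells in the interferon and complement differences was not tested. In such bulk samples, fewer cells of a type and less RNA per cell cannot be told apart.

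The summed level of endothelial markers was 10600 to 12855 CPM on the deficient and 11238 to 12391 CPM on the excess diet, and 10 of 10 were tested with a median of -0.02 and 0 at an unadjusted p under 0.05. The medians were -0.03 for general capillary markers, -0.04 for aerocyte markers and 0.02 for type 2 alveolar markers. Venous markers had a median of -0.27 (-0.43 without deficient replicate 2), with 6 of 8 below 0. Selp, an adhesion molecule, differed by -0.53 and Ackr1, a chemokine-binding receptor, by -0.50, while Amigo2, an adhesion protein, differed by 0.57 with excess above deficient in every library. Fibroblast markers had a median of -0.41 and were below 0 in 8 of 8, and mural markers had a median of -0.38 with 7 of 8 below 0.

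Collagen genes, 21 of 21 tested, were below 0 in 20, with a median of -0.22. At an unadjusted p under 0.05, 3 were lower (14.3%), against 3.18% of all genes. Without excess replicate 1 the median was -0.11. Col1a1, a main fibrillar collagen of fibroblasts, was at 203, 196, 194, 181 and 229 CPM on the deficient diet and at 119.7, 183, 78.3, 151 and 115 CPM on the excess diet. Of the excess libraries only replicate 2, at 183 CPM, lay above the lowest deficient library. The log2 difference of Col1a1 was -0.63 ± 0.23 (edgeR unadjusted p = 0.0112). In the Glenn libraries the collagen median was -0.21, with 19 of 21 below 0. There 6 were lower at an unadjusted p under 0.05, against 2.5% of all genes. The summed fibroblast markers ran from 2026 to 3306 CPM on the deficient and from 1306 to 2226 CPM on the excess diet. The fibroblast list itself holds Col1a1, Col1a2 and Col3a1, so its sum is not a measure separate from the collagen values. The part of fibroblasts in the collagen values was not tested.

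In the BMP9/ALK1 list, the signal that keeps lung vessels quiescent, 23 of 23 genes were tested and the median was 0.03. Only 1 was higher at an unadjusted p under 0.05, where 2.1% of all genes were higher. That was Smad7, an inhibitory SMAD, at 77.1, 58.4, 117, 137 and 64.2 CPM on the deficient diet and at 127, 78.9, 139.8, 147 and 157 CPM on the excess diet, with overlap (0.84 ± 0.27, edgeR unadjusted p = 0.00468). The receptor gene Acvrl1 differed by -0.08, its co-receptor Eng by 0.09 and the target Id1 by 0.11. The Notch list had a median of 0.02 over 16 genes with 0 at an unadjusted p under 0.05.

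Shear and immediate early genes had a median of 0.13 over 23 of 24 tested, with 19 above 0. At an unadjusted p under 0.05, 3 were higher (13%), against 2.1% of all genes. Besides Nr4a2 these were Klf2, the flow-responsive factor of endothelium (0.37, edgeR unadjusted p = 0.0189), and Klf6 (0.31, unadjusted p = 0.00978). Klf2 ran from 1133 to 1649 CPM on the deficient and from 1366 to 2021 CPM on the excess diet, so the groups overlapped. Heat shock and unfolded protein genes had a median of 0.19, with 25 of 26 above 0. Of these genes 2 were higher at an unadjusted p under 0.05 (7.69%), against 2.1% of all genes. Those were Bag3, a co-chaperone (0.29), and Hsp90aa1, a chaperone (0.33). The heat shock median was 0.11 without excess replicate 3 and 0.008 without deficient replicates 1 and 2.

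Proliferation genes had a median of 0.10 over 32 tested with 1 higher at an unadjusted p under 0.05, cholesterol and fatty acid synthesis genes -0.05 over 31 with 0, clock genes 0.09 over 19 with 0, and glycolysis and hypoxia genes -0.03 over 20 with 1 lower. Fatty acid uptake and oxidation genes had a median of -0.02 over 22 with 2 lower, and mitochondrially encoded genes 0.07 over 13 with 0. Of all genes, 2.1% were higher and 3.18% lower at that p. Several of these medians moved when 1 library was left out. Without deficient replicate 2 the proliferation median was -0.07 and that of the Notch list -0.05, and without deficient replicate 1 the cholesterol and fatty acid synthesis median was 0.09. Leaving out 1 library gave 0.03 to 0.19 for clock genes, 0.02 to 0.14 for mitochondrially encoded genes, -0.07 to -0.01 for fatty acid uptake and oxidation genes and -0.06 to -0.005 for glycolysis and hypoxia genes.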

How the data were processed

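RNA sequencing measured CD31-selected rat lung cells in 30 libraries of 6 groups, of which 5 sham libraries on the excess diet and 5 on the deficient diet form the comparison. Values are gene-level estimated counts, which the authors made with Salmon and deposited as one table; FastQC, Trim Galore, Picard and STAR, with the builds mRatBN7.2 and rn7, are also named in the submitters' processing notes without versions. Strandedness and annotation release are not given in the sources used here. The table has 30562 rows, 946 of which share a gene name and were kept under their identifiers, and 0 of its sample columns were left out.

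The estimates were rounded. In R 4.3.3, edgeR 4.0.16 kept genes by its filterByExpr function (minimum count 10, minimum total 15), which left 16171, and libraries were scaled by TMM. One robust quasi-likelihood fit held all 30 libraries, with 6 group means plus an additive term for the library series (series B begins at library number 598). Benjamini-Hochberg adjustment of p-values ran over all genes tested, and an adjusted p under 0.05 is called a change. Within the 2 groups the 20 pairs of libraries had a chi-square per degree of freedom of 21.4 to 98.1, so no library was a copy of another. Zero counts allow up to 3 counts, which covers counting error only.

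The members, lists and tests were chosen with earlier results of these data known. The named genes are the 8 higher and 8 lower with the smallest p among genes averaging 1 CPM or more, genes of the retinoid lists, and in each other list up to 3 genes. The other genes named, and the lists of interferon roles, complement and motile cilia, were chosen after their values were seen. Genes that the lists count but the text and figures do not name are not reported here. Same-numbered libraries of the 2 groups had correlations of -0.195 to 0.0566, with 0 of 5 over 0.1, so the numbers do not pair them. DESeq2 1.42.0 and limma 3.58.1 (voom with a quality weight for each library) were alternatives. Further alternatives were other library choices, covariates, filters and leaving out each library. The fit was also run on simulated data of 16007 genes for this comparison. The changed genes were drawn only from those above a minimum expected count. On these simulated data edgeR recovered 86 of 100 genes changed by 1 log2 unit and 98 of 100 changed by 2. It made 10 false calls there, and DESeq2 made 35. These values hold for the simulated data only, and recovery in the real libraries was not tested. In the real libraries Cyp26b1, at a log2 difference of 1.79, did not pass the threshold in edgeR (adjusted p = 0.294).

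Promoter windows of 300 bases came from RefSeq's GRCr8 table and were used for sequence only.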

Additional observations from a re-analysis of the deposited data

Results flagged for a closer look

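Of 54 sets of 5 libraries examined, 4 held a library far from the others, where chance gives about 1 in 20 (2.7 of 54). In each, the gap to the nearest library was divided by the whole range of the group and exceeded 0.71, the critical value for 5 libraries. Cyp26b1 in deficient replicate 2, at 82.7 CPM against 43.3 CPM for the next and 29.8 CPM for the lowest, gave 0.746. Gbp6 in the same library, at 35.5 CPM against 12.8 CPM for the next, gave 0.889. Nr4a2 in deficient replicate 5, at 33.3 CPM against 24.4 CPM, gave 0.910. C4b in excess replicate 3, at 72.0 CPM against 117 CPM for the nearest, gave 0.809. The retinoid gene Cyp26b1 and the interferon gene Gbp6 are thus both high in deficient replicate 2.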

How the results depend on the processing

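The count of 2 genes called was small and depended on the setting. It was 0 with no series term (1369 genes at an unadjusted p under 0.05), 0 with RT1-CE16 level as the covariate instead (846), 1 with series and sex (872), 10 within series A (all lower), 12 with DESeq2, 1 with no filter, 0 in the 2 groups alone with or without the series term, and 6 in the sham libraries alone. A fit with the replicate number as a block called 4, although the numbers do not pair the libraries. Leaving out 1 library gave 0 to 3 calls. Chosen after seeing the data, the RT1-CE16-low libraries alone, RT1-CE16 level with sex, and the fit without deficient replicates 1 and 2 each called 0. The count of genes whose diet effect differed between surgeries was 0, and 1 with DESeq2. The retinoic acid-induced median was -0.12 with no filter and 0.081 without deficient replicates 1 and 2. The interferon median ran from -0.89 to -0.11, and from -0.73 to -0.32 when 1 library was left out. The signs of the 16 named genes held in all 26 alternatives run. Depth, 32.1 to 49.4 M counts, limits genes of about 1 CPM such as Rdh12.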

Other observations

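Motile cilia genes, listed after the values were seen, lay lower on the excess diet in the sham libraries. Of 12 tested, 11 were below 0 with a median of -1.25, against 49.8% of all genes below 0. In edgeR 7 were lower at an unadjusted p under 0.05, against 3.18% of all genes, and 0 passed the adjusted threshold. Cfap206, a cilia component, differed by -1.83 (edgeR unadjusted p = 0.000643) and Dnah3, an axonemal dynein heavy chain, by -3.47 (unadjusted p = 0.000702). Dnah3 had no count in 3 excess libraries, so its fitted value is no bound. As mean log2(CPM + 1) over the list, the deficient libraries stood at 2.22, 2.32, 1.28, 1.72 and 1.86, and the excess libraries between 1.24 and 1.72, so 2 deficient libraries lay above all others. The list's median was -0.23 without those 2 libraries, with 0 genes at an unadjusted p under 0.05. In the Glenn libraries the median was -0.44.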
